A study of Mus musculus with 8 samples.

Results

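Complex I (NADH dehydrogenase) is the entry enzyme of the mitochondrial respiratory chain, and its nuclear-encoded subunits and many of its assembly factors carry gene symbols that start with Nduf. All rows of the deposited table whose symbol starts with Nduf were taken, except processed copies marked by -ps, of which the table held 0. This gave 45 genes of the 34745 in the table. They comprise 7 core subunits, 29 accessory subunits, 7 assembly factors (Ndufaf1 to Ndufaf7) and a pair of related genes, Ndufa4 and Ndufa4l2, which were kept apart because NDUFA4 has been reassigned to complex IV.

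The study sequenced bulk RNA of 3 kinds of lymphoid progenitor, all sorted from fetal livers of untreated wild-type B6 mice. CLP, common lymphoid progenitors, were Flt3+ cells (3 libraries). ILCP, innate lymphoid cell precursors, were Flt3- α4β7+ cells with PD-1 and without CD94 (3 libraries), and ILC1/3P were Flt3- α4β7+ cells with CD94 and without PD-1 (2 libraries). Every gate also required live CD45+ CD127+ cells without lineage markers or CD25, and the labels give a sort purity above 90%. The labels hold an age entry of 6 to 8 weeks beside the fetal tissue and do not say what it refers to. They do not say that libraries came from separate animals, so the p-values measure the spread between these libraries, which may be technical. With 2 ILC1/3P libraries the precision of both comparisons with that group is limited.

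Complex I takes electrons from NADH to ubiquinone and pumps protons across the inner mitochondrial membrane. The core subunits carry the flavin, the iron-sulfur clusters and the ubiquinone site in the matrix arm, while the proton-pumping core of the membrane arm is encoded by mitochondrial DNA. Accessory subunits surround the core and are needed for its stability, and assembly factors help to build the complex but are not part of the finished enzyme. Lymphoid progenitors change their use of oxidative and glycolytic metabolism as they differentiate.

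Promoters are shown first for a gene of each kind of behaviour described below, an accessory subunit that rose in ILC1/3P (Ndufs5), a core subunit that rose (Ndufs8) and a core subunit that was lower (Ndufv1). RefSeq promoter windows (GRCm38.p6, 250 bases before to 50 after the start) matched 39 of the 45 genes. Each printed stretch runs 5′ to 3′ on the minus strand from 250 to 61 bases before the RefSeq start and overlaps no annotated exon. The stretches lie at chr4:123718247-123718436, chr19:3912835-3913024 and chr19:4012816-4013005, in that order. Capitals mark the NRF1 letters in Ndufs5 and the E-box letters in Ndufv1, and the Ndufs8 stretch holds none of the 6 motifs searched.
Ndufs5: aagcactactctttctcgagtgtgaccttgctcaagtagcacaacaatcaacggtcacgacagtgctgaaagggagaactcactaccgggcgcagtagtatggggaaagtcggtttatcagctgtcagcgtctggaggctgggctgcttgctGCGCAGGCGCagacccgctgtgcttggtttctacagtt
Ndufs8: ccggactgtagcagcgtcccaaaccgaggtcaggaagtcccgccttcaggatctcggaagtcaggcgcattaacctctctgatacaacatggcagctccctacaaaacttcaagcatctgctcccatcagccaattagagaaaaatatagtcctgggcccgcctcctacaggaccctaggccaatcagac
Ndufv1: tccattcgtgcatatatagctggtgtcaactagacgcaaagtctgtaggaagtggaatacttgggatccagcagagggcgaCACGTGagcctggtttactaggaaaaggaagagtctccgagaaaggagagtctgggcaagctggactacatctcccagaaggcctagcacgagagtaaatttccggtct

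The motifs were searched as exact letters on both strands in the full 300-base windows. The NRF1 letters, GCGCA and GCGC with 1 free base between them, named for nuclear respiratory factor 1, a known activator of respiratory chain genes, were found for 9 of 39 genes (23.1%) against 4.60% of all 32851 windows. Among them were 7 of 27 accessory subunits with a window, 2 of 6 assembly factors and 0 of 5 core subunits. The YY1 letters AAGATGGC were found for 7 of 39 genes (17.9%) against 2.75% of all windows. The SP1 letters GGGCGG were found for 20 (51.3%) against 35.7%, the E-box CACGTG, which MYC can bind, for 2 (5.13%) against 7.15%, the TATA letters TATAAA for 4 (10.3%) against 13.6%, and the ETS letters CCGGAAGT for 1 (2.56%) against 3.89%. The SP1 letters can lie inside longer GC-rich matches, and a match describes letters in a window and not a bound site.

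Total counts ran from 4991939 to 8082476 per library. Genes with a count numbered 13454 to 14171 in CLP, 13019 to 13703 in ILCP and 12230 to 12705 in ILC1/3P, and the 50 most abundant genes took 12.9 to 16.0%, 15.1 to 18.0% and 24.8 to 29.2% of counts. The scaling factors that correct library size for composition (TMM) were 1.05 to 1.23 in CLP and ILCP and 0.753 and 0.671 in ILC1/3P, so the ILC1/3P libraries stood apart in composition. Of the genes behind the gates, Flt3 read 401 to 570.4 CPM in CLP, 0 to 1.28 in ILCP and 0 in ILC1/3P. Klrd1, which encodes CD94, read 1184 to 1629 CPM in ILC1/3P and 19.1 to 71.5 in ILCP, which was gated without it. Its CLP level of 40.8 to 65.5 CPM lay within the ILCP range. Pdcd1, which encodes PD-1, read 44.6 to 107 CPM in ILCP, 0 in CLP and 10.2 to 17.5 in ILC1/3P, which was gated without it. Il2ra, which encodes CD25 and was gated out of all 3 populations, read 0 in CLP, 6.26 to 9.26 CPM in ILCP and 0.822 to 3.78 in ILC1/3P. For CLP, ILCP and ILC1/3P in that order, Itga4 (α4) read 302 to 412, 417 to 490 and 100 to 169 CPM. Itgb7 (β7) read 0.736 to 8.27, 28.3 to 113 and 39.1 to 65.9 CPM. Il7r (CD127) read 380 to 526, 461 to 501 and 214 to 215 CPM, and Ptprc (CD45) 188 to 290, 202 to 262 and 299 to 340. Itga4 and Il7r were thus lowest in ILC1/3P, although its gate required α4β7 and CD127. Counts were scaled to the TMM-adjusted library size (CPM) and tested with edgeR's quasi-likelihood test over 13436 genes, with Benjamini-Hochberg adjusted p under 0.05 as the call. All 45 Nduf genes entered the test, and 44 had a count in every library.

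The Nduf genes as a group were higher in ILC1/3P than in either other population, and the core subunits were divided. Together they took 0.735, 0.799 and 0.945% of counts in the CLP libraries, 0.901, 1.14 and 0.914% in ILCP, and 1.53 and 1.66% in ILC1/3P. Against CLP, 32 of 45 were called higher in ILC1/3P, where 11.8% of all genes tested were called higher, and 1 was called lower, where 11.7% of all genes were. The median log2 fold change of the 45 genes was 1.50 and that of all genes tested was -0.25. In 39 of the 45 genes both ILC1/3P libraries lay above all CLP libraries (23.3% of all genes tested), and in 4 both lay below (29.1%). In bulk RNA a change in the kinds of cells and a change of RNA per cell cannot be told apart.

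Against ILCP, 29 of 45 were called higher in ILC1/3P, with 8.06% of all genes tested called higher, and 3 were called lower, with 8.25% of all genes called lower. The median log2 fold change was 1.28 beside -0.23 for all genes, and 37 genes lay wholly above and 5 wholly below the ILCP libraries (20.2% and 24.7% of all genes). Between ILCP and CLP, 1 of 45 was called higher (3.91% of all genes tested) and 0 were called lower (2.87%). There 6 of 45 reached an unadjusted p under 0.05, beside 20.1% of all genes, and DESeq2 called 4 higher and 0 lower, beside 6.81% and 5.91% of the genes to which it gave an adjusted p. The median was 0.32 beside 0.01 for all genes, 38 of 45 had a positive fold change, and 9 of 45 lay wholly above the CLP libraries, beside 14.1% of all genes. Both comparisons with ILC1/3P share those 2 libraries, and both comparisons with CLP share its 3.

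**Figure D1:**
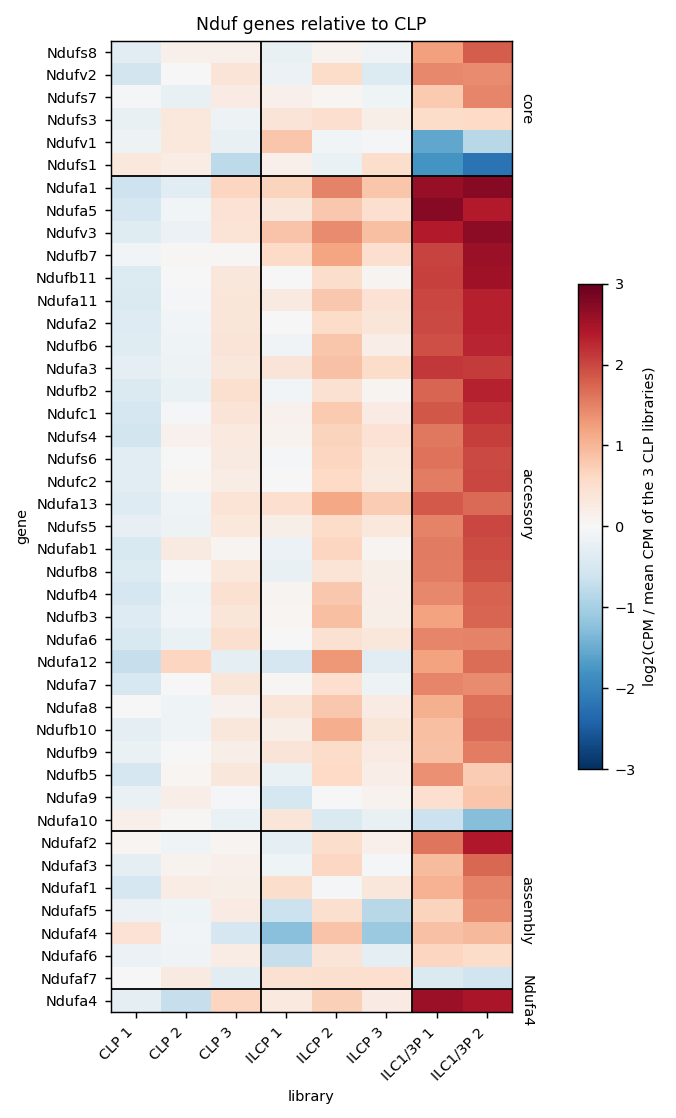
Level of each Nduf gene in every library as log2 of its CPM over the mean CPM of the 3 CLP libraries (red higher, blue lower, from -3 to 3), for 6 core subunits, 29 accessory subunits, 7 assembly factors and Ndufa4; Ndufa4l2 is left out because it had no count in CLP. The 2 ILC1/3P columns are red for most accessory subunits and blue for Ndufs1, Ndufv1 and Ndufa10.

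The core subunits of the NADH-oxidising module moved in opposite directions in ILC1/3P. Ndufv1, which holds the flavin and the NADH site, read 85.9, 120.5 and 82.0 CPM in CLP, 171, 90.1 and 92.5 CPM in ILCP, and 32.7 and 54.4 CPM in ILC1/3P. Ndufs1, the largest subunit, which carries iron-sulfur clusters that pass the electrons on, read 192, 178 and 88.8 CPM in CLP, 170.1, 133 and 219.8 CPM in ILCP, and 43.9 and 32.9 CPM in ILC1/3P. For both genes the 2 ILC1/3P libraries lay below all others, and the CLP and ILCP libraries overlapped. Ndufs1 fell in ILC1/3P, with a log2 fold change of -1.99 ± 0.39 (SE) against CLP (adjusted p = 0.00342) and -2.18 ± 0.39 against ILCP (adjusted p = 0.00381). Ndufv1 fell against ILCP, with a log2 fold change of -1.44 ± 0.40 (adjusted p = 0.0295). Against CLP its log2 fold change of -1.14 ± 0.39 missed the threshold (adjusted p = 0.0553). The Ndufv1 call against ILCP was lost in 4 of 18 alternatives, without ILCP replicate 1, its highest library, without ILC1/3P replicate 1, with only the 2 groups compared, and with the coding length trend described below removed (adjusted p = 0.295). Ndufs1 was called lower in both comparisons under every alternative tried (largest adjusted p = 0.0341 against CLP and 0.0367 against ILCP). Its exons overlap those of Ino80dos and Eef1b2 on the other strand, whose reads cannot be separated without strand information.

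Ndufv2, the partner of Ndufv1 in the same module and also an iron-sulfur protein, rose in ILC1/3P. It read 419.6, 624 and 808 CPM in CLP, 543, 903 and 462 CPM in ILCP, and 1673 and 1657 CPM in ILC1/3P. Both ILC1/3P libraries stood close to each other, above the highest ILCP library. The log2 fold change was 1.43 ± 0.33 (adjusted p = 0.00872) against CLP and 1.39 ± 0.33 (adjusted p = 0.0150) against ILCP, the second of which was lost when ILC1/3P replicate 2 or ILCP replicate 1 or 3 was left out. Per kilobase of the principal transcript, the Ndufv2 level was 4.78 to 9.64 times that of Ndufv1 in CLP, 3.11 to 9.81 times in ILCP, and 29.8 and 50.02 times in ILC1/3P. The finished enzyme holds these subunits in equal numbers, but these are ratios of RNA and say nothing on protein. Their size depends on the transcript length used. With the coding length trend removed Ndufv1 was not called lower (-0.33 against CLP, adjusted p = 0.588, and -0.66 against ILCP, adjusted p = 0.295).

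In the module that reduces ubiquinone, Ndufs8 and Ndufs7, which carry its iron-sulfur clusters, rose. Ndufs8 read 344, 486 and 482 CPM in CLP, 377, 468 and 409.7 CPM in ILCP, and 1033 and 1529 CPM in ILC1/3P. Its log2 fold change was 1.55 ± 0.26 (adjusted p = 0.00132) against CLP and 1.61 ± 0.26 (adjusted p = 0.00224) against ILCP, and the ILC1/3P libraries did not overlap either group. Ndufs7 read 154, 136 and 189.6 CPM in CLP, 177, 166 and 145 CPM in ILCP, and 276 and 441 CPM in ILC1/3P, with log2 fold changes of 1.17 ± 0.27 (adjusted p = 0.00899) and 1.14 ± 0.27 (adjusted p = 0.0150). The Ndufs7 call was lost without ILC1/3P replicate 2 in both comparisons, and against ILCP also without ILCP replicate 3. Scaled by library size alone, without the composition factors, Ndufs8 kept its calls and those of Ndufs7 and Ndufv2 were lost.

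Ndufs3 belongs to the same module. Ndufs3 read 124, 181 and 131 CPM in CLP, 190.0, 205 and 165 CPM in ILCP, and 215 and 220.3 CPM in ILC1/3P. Both ILC1/3P libraries were above all others for Ndufs3, but the log2 fold changes of 0.58 ± 0.25 against CLP and 0.22 ± 0.26 against ILCP did not pass the test (adjusted p = 0.123 and 0.613). Ndufs3 also has an annotated near-identical processed copy, so its counts are uncertain. In all, 3 of 7 core subunits rose and 1 fell against CLP, beside 11.8% and 11.7% of all genes tested. That 1 of 7 was lower is thus near the share of all genes. Against ILCP 3 rose and 2 fell, beside 8.06% and 8.25%. None changed between ILCP and CLP in the edgeR test, where 3.91% of all genes were called higher and 2.87% lower. There 0 of 7 reached an unadjusted p under 0.05, beside 20.1% of all genes. The balance turned with the scaling. With library size alone 1 core subunit was called higher and 3 lower against CLP (7.04% and 20.9% of all genes). Against ILCP 1 was then higher and 2 lower (3.53% and 15.9%). With the coding length trend removed 4 were higher and 1 lower against CLP (13.5% and 9.27%), and 3 higher and 1 lower against ILCP (8.6% and 5.94%). In the table's coordinates (mm10) Ndufs1 lies at chr1:63143596-63176833, Ndufv1 at chr19:4007497-4012806, Ndufv2 at chr17:66078795-66101559, Ndufs7 at chr10:80249121-80256794 and Ndufs8 at chr19:3908870-3912717.

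**Figure D2:**
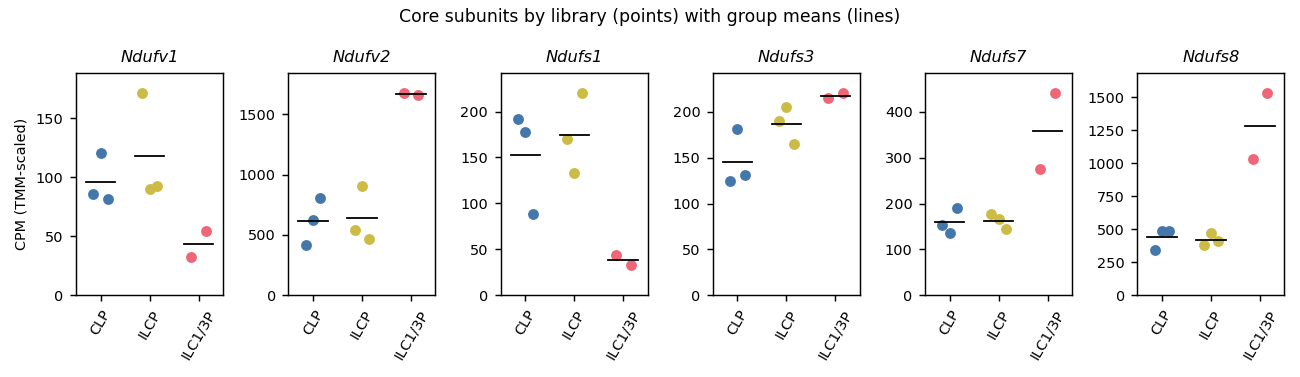
CPM of 6 core subunits (y axis from 0, its own scale in each panel) in the 3 CLP, 3 ILCP and 2 ILC1/3P libraries; points are libraries and lines are group means. The ILC1/3P points lie above all others for Ndufv2, Ndufs7, Ndufs8 and Ndufs3, and below all others for Ndufs1 and Ndufv1.

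Of the 29 accessory subunits, 25 rose and none fell in ILC1/3P against CLP, beside 11.8% and 11.7% of all genes tested. There 29 of 29 had an unadjusted p under 0.05 (36.5% of all genes tested, in either direction), and the median log2 fold change was 1.77. Against ILCP 23 rose and none fell (8.06% and 8.25% of all genes), with a median of 1.46. There 27 had an unadjusted p under 0.05 (29.7% of all genes). The count against ILCP dropped to 14 higher and 0 lower with the coding length trend removed (8.6% and 5.94% of all genes). With library size alone it dropped to 13 higher and 1 lower, Ndufa10 (3.53% and 15.9%). In the same order, the counts against CLP were 23 and 0 (13.5% and 9.27%), and 21 and 1 (7.04% and 20.9%). Called fold changes against CLP ran from 1.11 for Ndufb5 to 2.68 for Ndufa1 on the log2 scale. The Ndufb5 call was lost in 7 of 18 alternatives (adjusted p up to 0.342), among them library size alone, the length trend removed, and leaving out CLP replicate 1 or 2 or ILC1/3P replicate 1. Ndufa1, a small membrane-arm subunit, read 43.6, 52.8 and 105 CPM in CLP, 108, 190.1 and 119 CPM in ILCP, and 412 and 449 CPM in ILC1/3P.

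Ndufv3, an accessory subunit of the NADH-oxidising module, was the Nduf gene with the smallest p against CLP. It read 73.3, 83.0 and 125 CPM in CLP, 168, 249 and 175 CPM in ILCP, and 486 and 600.1 CPM in ILC1/3P, so the 3 groups did not overlap and stood in the order CLP, ILCP, ILC1/3P. Its ILC1/3P level had a log2 fold change of 2.53 ± 0.30 (adjusted p = 1.45e-04) over CLP and of 1.46 ± 0.29 (adjusted p = 0.00640) over ILCP. The ILCP level had one of 1.08 ± 0.27 (adjusted p = 0.0329) over CLP, which was the single Nduf call between ILCP and CLP. It was lost when CLP replicate 1 or 2, or any ILCP replicate, was left out (adjusted p up to 0.147). Ndufv3 lies at chr17:31520115-31531326.

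Ndufa2 and Ndufa5, accessory subunits of the matrix arm, rose as well. Ndufa2, of the NADH-oxidising module, read 169, 206 and 284 CPM in CLP, 219.6, 322 and 281 CPM in ILCP, and 873 and 1101 CPM in ILC1/3P, with a log2 fold change of 2.17 ± 0.28 against CLP and 1.85 ± 0.28 against ILCP (adjusted p = 2.50e-04 and 0.00163). Ndufa5, of the ubiquinone-reducing module, read 47.3, 63.8 and 90.9 CPM in CLP, 85.2, 117 and 95.3 CPM in ILCP, and 449.9 and 353 CPM in ILC1/3P, with log2 fold changes of 2.58 ± 0.31 and 2.02 ± 0.31 (adjusted p = 1.66e-04 and 0.00167). In both genes the 2 ILC1/3P libraries were far above the others and the CLP and ILCP libraries overlapped. Ndufs4 and Ndufs6, whose loss is known to cause complex I deficiency, had log2 fold changes of 1.85 ± 0.30 and 1.82 ± 0.29 against CLP (adjusted p = 0.00110 and 0.00108). Ndufs5 had log2 fold changes of 1.77 ± 0.30 against CLP and 1.42 ± 0.30 against ILCP (adjusted p = 0.00155 and 0.00865). Its call against ILCP was lost with library size alone and with the coding length trend removed. An annotated near-identical processed copy makes its counts uncertain.

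Ndufb7, Ndufb11 and Ndufa3, accessory subunits of the membrane arm, rose in both comparisons. Ndufb7 read 171, 184 and 186 CPM in CLP, 269, 410.1 and 255 CPM in ILCP, and 739 and 1081 CPM in ILC1/3P. Ndufb11 read 195, 257 and 331 CPM in CLP, 257, 376 and 275 CPM in ILCP, and 1079 and 1511 CPM in ILC1/3P. Ndufa3 read 102, 111 and 156 CPM in CLP, 161, 228 and 179 CPM in ILCP, and 531 and 527 CPM in ILC1/3P. In each of the 3 genes the lowest ILC1/3P library was above the highest library of both other groups, and Ndufb7 and Ndufa3 were also higher in each ILCP library than in any CLP library without passing the test. The log2 fold changes against CLP were 2.33 ± 0.28 for Ndufb7, 2.31 ± 0.29 for Ndufb11 and 2.11 ± 0.26 for Ndufa3 (adjusted p = 1.53e-04, 2.12e-04 and 2.08e-04). Against ILCP they were 1.55 ± 0.27, 2.10 ± 0.29 and 1.48 ± 0.26 (adjusted p = 0.00332, 0.00106 and 0.00338), and the Ndufa3 call against ILCP was lost with the length trend removed (adjusted p = 0.138).

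Ndufa11, which lies at the membrane arm, read 141, 188 and 248 CPM in CLP, 231, 335 and 260.0 CPM in ILCP, and 774 and 969 CPM in ILC1/3P, and Ndufb2 read 85.1, 99.5 and 159.6 CPM in CLP, 109, 158 and 121 CPM in ILCP, and 382 and 566 CPM in ILC1/3P. Their log2 fold changes against ILCP were 1.66 ± 0.28 and 1.87 ± 0.32 (adjusted p = 0.00283 and 0.00286). Ndufab1, the mitochondrial acyl carrier protein, which also serves fatty acid synthesis, had log2 fold changes of 1.76 ± 0.36 against CLP and 1.54 ± 0.36 against ILCP (adjusted p = 0.00426 and 0.0134), and leaving out ILC1/3P replicate 2 or ILCP replicate 1 or 3 ended the call against ILCP. Ndufab1, Ndufb11, Ndufs6, Ndufa12 and Ndufb4 have annotated near-identical copies. Ndufb11, Ndufa11, Ndufa2, Ndufa3, Ndufb2, Ndufs6, Ndufab1, Ndufa9, Ndufa13, Ndufb5, Ndufb9 and Ndufa4l2 share exon bases with other genes. The counts of all these may include or lack reads of the copies or overlapping genes. The same holds for the overlaps of Ndufs3, Ndufaf2 and Ndufaf3, whereas Ndufv1, Ndufv2, Ndufs7, Ndufs8, Ndufv3, Ndufa5, Ndufb7 and Ndufa1 have neither an annotated copy nor an overlap.

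The accessory subunits that did not pass the test against CLP were Ndufa10, Ndufa12, Ndufa9 and Ndufb4, and against ILCP Ndufb10 and Ndufb5 joined them. Ndufa10, which resembles a nucleoside kinase and is among the longer accessory subunits, read 193, 178 and 151 CPM in CLP, 223, 129 and 149 CPM in ILCP, and 111 and 72.1 CPM in ILC1/3P. Both ILC1/3P libraries were its lowest, with log2 fold changes of -0.92 ± 0.32 and -0.87 ± 0.32 (adjusted p = 0.0562 and 0.0887). Ndufa9, which sits at the junction of the arms, had log2 fold changes of 0.67 ± 0.26 and 0.78 ± 0.26 (adjusted p = 0.0832 and 0.0645). Ndufa12 read 37.5, 95.5 and 49.8 CPM in CLP, 42.8, 149 and 49.0 CPM in ILCP, and 142 and 195 CPM in ILC1/3P, and its ILCP replicate 2 lay above the lower ILC1/3P library. ILCP replicate 2 was the highest of its group for 27 of 29 accessory subunits, as CLP replicate 3 was for 25 of 29.

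Between ILCP and CLP 27 of 29 accessory subunits had a positive log2 fold change, with a median of 0.40 beside 0.01 for all genes tested. In 7 of 29 the ILCP libraries lay wholly above those of CLP, beside 14.1% of all genes tested. These 7 were Ndufv3, Ndufb7, Ndufa3, Ndufa1, Ndufa13, Ndufa8 and Ndufb9. Ndufa1 had a log2 fold change of 1.05 ± 0.35 and Ndufa13, also known as GRIM-19, one of 0.84 ± 0.26 (adjusted p = 0.104 and 0.0877). The median over the 45 genes fell to 0.14 without ILCP replicate 2 and to 0.20 without CLP replicate 1.

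Assembly factors rose in part. Ndufaf2, a chaperone of late assembly that is replaced by Ndufa12 in the finished enzyme, read 42.8, 37.5 and 43.7 CPM in CLP, 34.4, 59.7 and 45.9 CPM in ILCP, and 126 and 219 CPM in ILC1/3P. Ndufaf3, which acts early on the ubiquinone-reducing module, read 45.9, 60.5 and 62.7 CPM in CLP, 51.6, 86.4 and 53.8 CPM in ILCP, and 109 and 185 CPM in ILC1/3P. Ndufaf1, of the complex that builds the membrane arm, read 40.0, 66.8 and 64.2 CPM in CLP, 82.6, 55.8 and 71.8 CPM in ILCP, and 118 and 159 CPM in ILC1/3P. For these genes both ILC1/3P libraries were above all others. Against CLP the log2 fold changes were 2.06 ± 0.35, 1.38 ± 0.35 and 1.28 ± 0.33 (adjusted p = 0.00137, 0.0140 and 0.0153). Against ILCP they were 1.88 ± 0.35, 1.20 ± 0.35 and 0.98 ± 0.33 (adjusted p = 0.00408, 0.0376 and 0.0655), so Ndufaf1 did not pass there. The calls of Ndufaf1 against CLP and of Ndufaf3 in both comparisons were lost without ILC1/3P replicate 2. The Ndufaf3 call was also lost against CLP without CLP replicate 1, and against ILCP without CLP replicate 2 or 3 or ILCP replicate 1 or 3. Scaled by library size alone, the calls of Ndufaf1 and Ndufaf3 were lost and those of Ndufaf2 were kept.

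Ndufaf4, the partner of Ndufaf3, read 113, 78.7 and 59.4 CPM in CLP, 35.4, 152 and 38.4 CPM in ILCP, and 154 and 165 CPM in ILC1/3P. Its ILCP replicate 2 was close to the ILC1/3P libraries while the other ILCP libraries were the lowest of all. Ndufaf5, which hydroxylates Ndufs7, read 22.6, 23.2 and 30.1 CPM in CLP, 16.2, 35.2 and 14.2 CPM in ILCP, and 40.1 and 67.4 CPM in ILC1/3P, and Ndufaf6 read 45.9, 48.2 and 60.6 CPM in CLP, 31.7, 67.4 and 42.2 CPM in ILCP, and 81.1 and 75.9 CPM in ILC1/3P. All 3 genes had both ILC1/3P libraries above all others, yet none passed the test (adjusted p = 0.248, 0.136 and 0.263 against CLP). Ndufaf7, a methyltransferase, went the other way and read 76.2, 91.1 and 60.6 CPM in CLP, 105, 106 and 108 CPM in ILCP, and 56.4 and 50.6 CPM in ILC1/3P. The 3 ILCP libraries lay within a narrow range above every other library, and the ILC1/3P libraries were the lowest. Its log2 fold change against ILCP was -0.98 ± 0.30 (adjusted p = 0.0451), a call lost in 13 of 18 alternatives, among them every one that left out a library. Against CLP the 7 assembly factors held 3 that rose and 0 that fell, beside 11.8% and 11.7% of all genes tested. There 4 had an unadjusted p under 0.05, beside 36.5% of all genes. Against ILCP 2 rose and 1 fell, beside 8.06% and 8.25%. With library size alone 1 was called higher and 1, Ndufaf7, lower in each of these comparisons. The shares of all genes were then 7.04% and 20.9% against CLP, and 3.53% and 15.9% against ILCP. With the coding length trend removed 4 were higher and 0 lower against CLP (13.5% and 9.27%), and 3 higher and 0 lower against ILCP (8.6% and 5.94%). Between ILCP and CLP 0 of 7 were called (3.91% and 2.87%), with 0 at an unadjusted p under 0.05 (20.1%).

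Ndufa4 read 195, 149 and 375 CPM in CLP, 295, 395 and 283 CPM in ILCP, and 1424 and 1309 CPM in ILC1/3P. Both ILC1/3P libraries were far above the rest, with log2 fold changes of 2.51 ± 0.35 against CLP and 2.07 ± 0.35 against ILCP (adjusted p = 4.14e-04 and 0.00271). Its paralog Ndufa4l2, known as a gene induced by hypoxia, had 0 counts in all CLP and ILC1/3P libraries and 1, 109 and 32 counts in the ILCP libraries. Against a floor of 3 counts pooled over a group, it was at least 46.5-fold higher in ILCP than in CLP and at least 22.8-fold higher than in ILC1/3P, for counting error alone. It did not pass the test in either comparison (adjusted p = 0.0964 and 0.116), and 1 ILCP library held most of its counts.

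Summed over the genes of a role, core subunits reached 1724 ± 252 CPM in CLP (SD, n = 3), 1780.4 ± 217 in ILCP (n = 3) and 3682 ± 498 in ILC1/3P (n = 2). Accessory subunits reached 4978 ± 1039, 6439 ± 1339 and 16718 ± 2521 CPM, and assembly factors 391 ± 13.0, 431 ± 114 and 803 ± 167 CPM. In each role both ILC1/3P libraries lay above all other libraries at this scaling, and the CLP and ILCP libraries overlapped. For assembly factors this rests on the composition scaling. Their sums were 685 and 921 CPM in ILC1/3P, with TMM factors of 0.753 and 0.671. The highest ILCP library stood at 562 CPM with a factor of 1.05. With these factors undone, the assembly sums of ILCP and ILC1/3P overlap. The summed accessory level was 2.71 to 3.16 times the summed core level in CLP, 3.08 to 3.94 times in ILCP, and 4.48 and 4.59 times in ILC1/3P. The core sum rests mostly on Ndufv2 and Ndufs8, so it was higher although Ndufs1 and Ndufv1 were lower. Per kilobase of principal transcript, Ndufs8 stood at 4.85 to 14.7 times Ndufs1 in CLP, 5.05 to 9.55 times in ILCP, and 63.7 and 126 times in ILC1/3P.

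**Figure D3:**
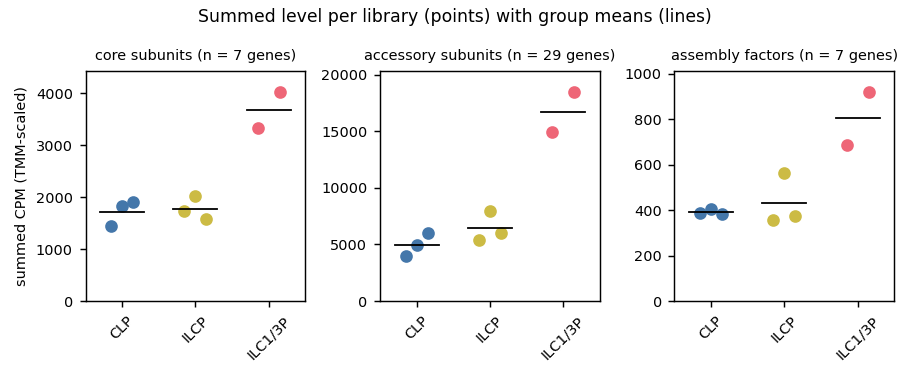
Summed CPM of the 7 core subunits, 29 accessory subunits and 7 assembly factors (y axis from 0, its own scale in each panel) by library, with CLP and ILCP in 3 libraries each and ILC1/3P in 2; points are libraries and lines are group means. At this scaling (TMM) the ILC1/3P points lie above all others in each panel, with accessory means of 4978, 6439 and 16718 CPM.

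The direction of the Nduf genes in ILC1/3P moved with the length of their coding sequence, measured on the principal GENCODE M21 transcript. The median coding length was 411 bases for accessory subunits, 789 for core subunits and 990.0 for assembly factors. Of 22 genes of up to 500 coding bases 19 rose against CLP, with a median log2 fold change of 1.93, and of 15 genes of 500 to 1000 bases 12 rose, with a median of 1.35. Of 7 genes of 1000 to 1500 bases 1 rose, Ndufv3, and the median was -0.50. Ndufs1, with 2181 coding bases, was the single longer gene and the single one that fell. Spearman's rho between length and fold change was -0.72 over 44 of these genes, as a description only, since all points share the same libraries.

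Over the 11799 tested genes with a coding length, the fold change also fell with that length, up to 2000 bases. Against CLP, genes of up to 500 coding bases had a median log2 fold change of 1.02 (41.5% called higher and 7.01% lower), and those of 500 to 1000 bases one of 0 (18.8% and 13.4%). The median was -0.55 at 1000 to 1500 bases (6.77% and 16.9%), -0.77 at 1500 to 2000 bases (3.78% and 16.5%) and -0.27 above 2000 bases (4.82% and 8.49%). Of the counts of these 11799 genes, those of up to 500 coding bases took 18.2 to 23.0% in CLP, 21.7 to 25.8% in ILCP, and 35.9 and 41.8% in ILC1/3P. Those above 2000 coding bases took 9.28 to 11.7%, 8.00 to 9.81%, and 5.73 and 5.04% of the same counts. The part of this shift between libraries in the Nduf results was not tested beyond the following alternative.

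With a smooth trend of level on coding length removed from each library, a choice made after seeing the data, 32 Nduf genes were called higher and 1 lower against CLP (13.5% and 9.27% of all genes in that fit), with a median log2 fold change of 1.04 beside 0.07 for all genes. Against ILCP 21 were called higher and 1 lower (8.6% and 5.94%), with a median of 0.76 beside 0.05. The median against CLP was then 0.74 for core subunits, 0.95 for accessory subunits and 1.05 for assembly factors, where it had been 0.58, 1.77 and 1.09. Against ILCP it was 0.70 for core subunits, 0.68 for accessory subunits and 1.19 for assembly factors, where it had been 0.22, 1.46 and 1.08, so the accessory median no longer stood above that of the core. Ndufs1 was still called lower, at -1.32 against CLP and -1.63 against ILCP (adjusted p = 0.0149 and 0.00808). Ndufv1 was not, at -0.33 and -0.66 (adjusted p = 0.588 and 0.295).

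**Figure D4:**
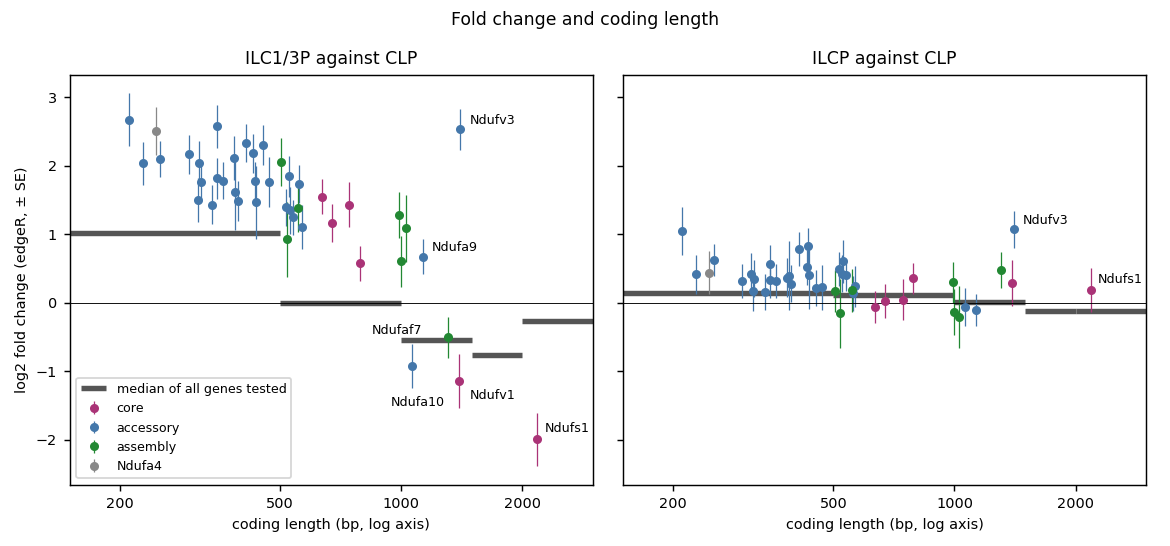
Log2 fold change (edgeR, bars ± SE) of 43 Nduf genes against coding length in bases (log axis) for ILC1/3P against CLP and ILCP against CLP, coloured by role. Grey bars are medians of all tested genes with a coding length, in 5 length classes. In the left panel most genes up to 1000 bases lie above 0 and Ndufs1, at 2181 bases, lies at -1.99, while Ndufv3, at 1404 bases, lies at 2.53; in the right panel most lie near 0.

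Scaling by library size alone moved the median of all genes from -0.25 to -0.93 against CLP and from -0.23 to -0.86 against ILCP. The Nduf calls were then 24 higher and 5 lower against CLP, beside 7.04% and 20.9% of all genes, and 16 higher and 4 lower against ILCP, beside 3.53% and 15.9%. The Nduf median moved by about as much as that of all genes, to 0.83 against CLP and 0.65 against ILCP. Under library size alone the core median turned negative (-0.09 against CLP and -0.42 against ILCP), as did the fold change of Ndufs3 in both and those of Ndufa9 and Ndufaf6 against CLP, while the accessory median was at 1.11 and 0.82 and the assembly median at 0.40 and 0.48. Over all genes the calls against CLP went from 1592 higher and 1571 lower to 946 and 2807.

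The other genes of complex I followed in part. Of the 7 subunits encoded by mitochondrial DNA, which form the proton-pumping core, mt-Nd2 and mt-Nd1 rose in ILC1/3P and none fell. The log2 fold changes were 1.57 ± 0.30 and 0.93 ± 0.29 against CLP, and 1.28 ± 0.30 and 1.06 ± 0.29 against ILCP. Their summed level was 2871 to 5377 CPM in CLP, 3415 to 5569.8 in ILCP and 7291 to 7768 in ILC1/3P. Of 8 assembly factors with other names found in the table, Tmem126b, of the membrane-arm assembly complex, rose (2.07 ± 0.37 against CLP and 1.39 ± 0.36 against ILCP) and Foxred1 fell against CLP (-1.55 ± 0.51). As a set these 8 did not rise, with a median log2 fold change of -0.60 against CLP and -0.32 against ILCP. Their summed level was 296 to 359 CPM in CLP, 292 to 396 in ILCP and 318 to 320 in ILC1/3P.

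Of the nuclear-encoded subunits of the other respiratory complexes more rose than fell in ILC1/3P. Against CLP, 1 of 4 complex II genes rose and 1 fell, 5 of 9 complex III genes rose and 1 fell, 9 of 10 complex IV genes rose and none fell, and 8 of 14 tested complex V genes rose and 2 fell. The ones that fell were Sdha (-1.38 ± 0.32, 1992 coding bases), Uqcrc1 (-0.85 ± 0.26, 1440 bases), Atp5a1 (-1.42 ± 0.32, 1659 bases) and Atp5b (-1.27 ± 0.28, 1587 bases). Those that rose with the smallest p were Sdhd (1.22 ± 0.26, 477 bases), Uqcr10 (2.83 ± 0.32, 192 bases), Cox7a2 (2.61 ± 0.29, 249 bases) and Atp5j (2.91 ± 0.33, 324 bases). Between ILCP and CLP Uqcrq of complex III rose (1.61 ± 0.28) and no other gene of complexes II to V changed in the edgeR test.

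Among 14 tested regulators of mitochondrial biogenesis, Myc fell in every comparison and none rose. Its log2 fold change over CLP was -2.72 ± 0.27 in ILCP and -4.10 ± 0.34 in ILC1/3P, and that of ILC1/3P over ILCP was -1.38 ± 0.30. Ppargc1a and Ppargc1b, the PGC-1 coactivators, had no counts in ILCP or ILC1/3P. In CLP Ppargc1a was low and uneven, at 4.85 ± 5.36 CPM (SD). It did not pass the edgeR test against CLP in ILCP or ILC1/3P (adjusted p = 0.0931 and 0.0913), and Ppargc1b was not among the genes tested.

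Markers of other cell types were low for erythroid cells and hepatocytes and differed between the groups for others. Summed over 12 erythroid markers the level was 8.83 to 16.5 CPM in CLP, 13.5 to 19.5 in ILCP and 18.9 to 28.4 in ILC1/3P, with Hbb-bh1, Hbb-y and Slc4a1 at 0 in every group. Summed over 8 hepatocyte markers it was 9.52 to 24.3, 34.4 to 65.7 and 23.9 to 36.7 CPM, with Alb at 0 in ILCP and ILC1/3P and Serpina1a at 0 throughout. The 10 myeloid markers summed to 761 to 960.1, 134 to 184 and 720.1 to 881 CPM, the 7 B cell markers to 2484 to 3305, 154 to 191 and 129 to 170, and the 6 mast cell and basophil markers to 0 to 2.82, 481 to 632 and 185 to 239. B cell markers were thus highest in CLP, and the myeloid sum was lowest in ILCP. The myeloid sums of CLP and ILC1/3P were similar, but single markers differed. Of 8 tested, 2 were called higher and 2 lower in ILC1/3P against CLP, with a median log2 fold change of -1.71. Elane and Ctsg were at 0 in ILCP and ILC1/3P, and S100a9 was at 0 in CLP. The mast cell and basophil sum was almost all Cpa3, a mast cell protease gene, at 481 to 627 CPM in ILCP and 185 to 237 in ILC1/3P, with Cma1 at 0 to 5.25 and 0 to 2.36 CPM, and with Mcpt8, Tpsb2, Fcer1a and Ms4a2 at 0 in every group. The 6 megakaryocyte markers summed to 0 to 6.07, 45.7 to 59.2 and 14.3 to 36.9 CPM and the 7 endothelial and stromal markers to 53.2 to 88.2, 94.3 to 124 and 57.7 to 113. The share of counts from mitochondrial genes was 2.70 to 4.53% in CLP, 2.71 to 4.13% in ILCP, and 4.91 and 5.39% in ILC1/3P. The part of these differences in the Nduf results was not tested.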

How the data were processed

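Bulk RNA-seq was analysed from 3 CLP, 3 ILCP and 2 ILC1/3P libraries, grouped by their titles. Per the labels' protocols, lysed cells went directly into SMARTer Ultra Low reverse transcription and PCR, with NovaSeq6000 sequencing. The authors deposited whole-number counts per gene and, beside them, FPKM values they computed. Per the submitters' processing notes the build was mm10. The aligner, counter and strand setting were not given in the sources used here, and protocols name no molecular identifiers. All columns were mapped to a sample.

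Counts were tested with edgeR 4.0.16 (R 4.3.3) by filterByExpr, TMM and a robust quasi-likelihood fit of all 8 libraries with 1 mean per group, two-sided, adjusted by Benjamini-Hochberg over 13436 genes and called at 0.05. Standard errors were derived from the F statistic. The scripts were tested on simulated counts. Coding length, exon overlap and near-identical copies (at least 95% identity over at least 50% of the coding sequence) came from GENCODE M21, where all 45 genes were found, 30 at an identical locus. By this search 8 genes have an annotated copy, 19 share exon bases with another gene and 22 have neither. The values of 1 core subunit are not reported here, although it is part of the counts and sums. Values in every library are given for the other core subunits, assembly factors and up to 6 called accessory subunits per comparison by smallest p, and other pathway genes by up to 4 of each list. Others were named after their values were seen. The members and lists were chosen with earlier results of these data known. Alternatives were DESeq2 1.42.0, other scalings and filters, limma 3.58.1 on log2(FPKM + 1) or log2(FPKM + 0.1), a replicate block, left-out libraries, genes without copies or overlap, and removal of the coding length trend. The depth limits low genes. Floors cover counting error only, while SD and SE also hold the spread between libraries.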

Additional observations from a re-analysis of the deposited data

How the results depend on the processing

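Under no alternative did a call change sign. Higher calls between ILCP and CLP were 5 without a filter on low counts, 4 with DESeq2, and 3 with limma on log2(FPKM + 1) or log2(FPKM + 0.1). They were 0 to 2 when a CLP or ILCP library was left out (median log2 fold change 0.14 to 0.45). Over all genes, higher calls there were 754 of 18766 without a filter, and 711 and 692 of 13436 with the FPKM fits. With a CLP or ILCP library left out they were 347 to 415. The Nduf genes added without a filter were Ndufa1, Ndufa13, Ndufb7 and Ndufa4l2.

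Lower calls in ILC1/3P against CLP were 5 with library size only, 3 without a filter, and 2 with at least 10 CPM in at least 2 libraries. They were 3 with DESeq2, 5 with either FPKM fit, and 1 to 3 when a CLP or ILCP library was left out. Those under library size only included Ndufs1, Ndufv1, Ndufa10 and Ndufaf7. Over all genes, lower calls were 1908 of 18766 without a filter, 1557 of 9539 with at least 10 CPM, and 2332 with DESeq2. They were 3183 and 3368 of 13436 with the FPKM fits, and 1092 to 1558 with a CLP or ILCP library left out. Higher calls were 29 to 34 with a CLP or ILCP library left out (median 1.38 to 1.72). The median was 1.71 without ILC1/3P replicate 1 and 1.44 without replicate 2, fits that leave 1 library in that group. Over all genes, higher calls were 1272 to 1639 with a CLP or ILCP library left out. The Nduf median was 0.83 with library size only, 0.86 with log2(FPKM + 1), 0.87 with log2(FPKM + 0.1) and 1.04 with the coding length trend removed. Among the 22 genes with no annotated copy and no exon overlap, 16 were higher and 0 lower, since Ndufs1 has such overlap. In that same fit 11.8% and 11.7% of all genes were called.

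Higher calls in ILC1/3P against ILCP were 16 with library size only, 19 and 18 with FPKM, and 14 of the 22 genes with no copy or overlap. Leaving out a library gave 17 to 33 higher calls, with 17 without ILC1/3P replicate 2 and 18 without ILCP replicate 3, 1 to 2 lower calls, and a median of 1.15 to 1.65. Lower calls were 1 with only the 2 groups compared, 5 with log2(FPKM + 0.1) and 1 with the length trend removed. Over all genes, higher calls were 662 and 607 of 13436 with FPKM, and 8.06% in the main fit. With a CLP or ILCP library left out, 692 to 1066 were higher and 689 to 956 lower. Lower calls over all genes were 803 of 12151 with only the 2 groups compared and 2594 of 13436 with log2(FPKM + 0.1). The Nduf median was 0.65 with library size only, 0.68 and 0.73 with FPKM, and 0.76 with the length trend removed. The cause of these changes was not tested.

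With the replicate number as a block, 1 Nduf gene was higher and 0 lower between ILCP and CLP, 34 higher and 2 lower in ILC1/3P against CLP, and 28 higher and 2 lower against ILCP. Over all 13436 genes the block gave 445 higher and 296 lower, 1392 and 1232, and 944 and 809, in that order. Correlations of deviations from the group means between the 7 pairs of same-numbered libraries ran from -0.03 to 0.09. Those between libraries of different numbers ran from -0.09 to 0.03. The highest were same-numbered, between CLP and ILCP replicate 1 (0.09) and between CLP and ILCP replicate 2 (0.06). With so few libraries per group these correlations cannot decide whether the numbers pair the libraries, and the main fit left the number out. The labels do not say whether same-numbered libraries share a litter or a day.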
